A study of Mus musculus with 11 samples.

Results

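The iron handling genes described here are transferrin receptor 2 (Tfr2), transferrin receptor 1 (Tfrc), the endosomal ferric reductase Steap3, the ferrous iron transporter Slc11a2 (DMT1), the ferritin subunits Fth1 and Ftl1, the iron exporter ferroportin (Slc40a1) and the iron regulatory proteins Aco1 (IRP1) and Ireb2 (IRP2). They are 9 of the 22129 genes obtained when estimated reads were summed per gene. The group was put together with the knockout and wild-type values of these same libraries in view, Tfr2 for its higher reads in the knockout, so that the differences between genotypes are given as a description and none is read as a test. All 9 passed the filter on low counts. Tfr2 passed it through the knockout group, since its level reached the filter's 0.329 CPM (reads scaled to a common library size) in 6 of 6 knockout libraries and in 1 of 5 wild-type libraries.

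RNA came from the inguinal mammary gland of mice on normal chow, taken 16 days after delivery and labelled PND16.5. The 6 Knockout mice were Tsc1-fl/fl; Adipoq-Cre-Tg/+ and the 5 Wild-Type mice Tsc1-fl/fl; Adipoq-Cre-+/+, so both groups carried floxed Tsc1 and differed in the Cre transgene. Adipoq-Cre recombines in adipocytes, whereas the libraries hold RNA of the whole gland. Nothing in the labels says whether the samples of a group came from separate litters, and p-values measure the spread between these samples. In bulk RNA, fewer cells of a type and less RNA per cell cannot be told apart.

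Libraries held 25817975 to 37894237 estimated reads. Tsc1 ranged from 8.31 to 11.9 CPM in the knockout group, overlapping the 9.55 to 12.2 CPM of the wild type, over a coding sequence that is not limited to the floxed part. Milk protein genes, the defining markers of the secretory gland, summed to 413000 to 747000 CPM across the 11 libraries, and adipocyte markers were detected in all of them. Library Knockout 1 stood apart in skeletal muscle markers, with a summed 2230 CPM against 0.817 to 185 CPM in the other libraries.

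Cells take up iron when transferrin binds its receptor at the surface and the complex is internalised. In the endosome Steap3 reduces the released iron and Slc11a2 carries it into the cytosol, where it is used, stored in ferritin or exported by ferroportin. When iron is scarce, the iron regulatory proteins bind stem-loops called iron-responsive elements (IREs). Binding in the 5′ UTR holds back translation of the ferritins and ferroportin, and binding in the 3′ UTR protects the Tfrc transcript from decay. Tfr2 is best known from hepatocytes and red cell precursors, where it takes part in sensing transferrin-bound iron and in the control of the hormone hepcidin. The lactating gland draws iron from the blood and secretes it in milk.

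The IREs are shown because they sort these genes by how iron acts on their transcripts, and because the deposited tables leave these regions out. A search of the GENCODE M21 transcripts (GRCm38) looked on the transcript's own strand for a C, 5 bases, the loop CAGTGN and 5 bases that pair with the first 5, with G-T pairs allowed. The capitals mark the loop.
Fth1 5′ UTR, chr19:9982732-9982760, + strand: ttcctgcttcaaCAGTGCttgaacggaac
Ftl1 5′ UTR, chr7:45459779-45459807, - strand: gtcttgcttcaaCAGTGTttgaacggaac
Slc40a1 5′ UTR, chr1:45925465-45925493, - strand: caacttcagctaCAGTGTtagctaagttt
Tfrc 3′ UTR, chr16:32631219-32631247, + strand: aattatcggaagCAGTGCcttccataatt
Tfrc 3′ UTR, chr16:32631598-32631626, + strand: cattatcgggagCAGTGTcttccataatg
Tfrc 3′ UTR, chr16:32631663-32631691, + strand: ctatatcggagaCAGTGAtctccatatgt
Tfrc 3′ UTR, chr16:32631710-32631738, + strand: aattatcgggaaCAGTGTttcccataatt
Slc11a2 3′ UTR, chr15:100395153-100395181, - strand: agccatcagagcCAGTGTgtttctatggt

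The 2 ferritins and ferroportin held a match in the 5′ UTR and Tfrc held 4 in the 3′ UTR. The Slc11a2 site pairs at 4 of 5 positions and was found under a rule relaxed to that number after the stricter search, 31 bases past the coding end of 1 transcript form, Slc11a2-205. With 5 pairs the pattern occurred in the 5′ UTR of 30 of 20148 genes (0.149%) and the 3′ UTR of 143 of 20936 genes (0.683%). With 4 or 5 pairs it occurred in 0.998% and 4.772% of genes. The UTRs of Tfr2, Steap3, Aco1 and Ireb2 did not hold these letters. A match is a description of the sequence only, and since nearly all of the 56855 compared entries in the tables were within 3 bases of the coding length, no reads were counted over the sites themselves.

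Tfr2 (ENSMUSG00000029716, chr5:137569840-137587481, + strand) had the lowest mean abundance per length of the 9 genes over the 11 libraries. In reads it exceeded Slc40a1 in Knockout 1, 3 and 6 and was below it in the other libraries. Estimated reads of Tfr2 in Knockout 1 to 6 were 62, 10, 30, 32, 14 and 53. In Wild-Type 1 to 5 they were 11, 4, 6, 4 and 1. Every wild-type library thus had fewer reads than 5 of the 6 knockout libraries, and Knockout 2 had 1 read fewer than Wild-Type 1.

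After TMM scaling, which corrects for the large share of milk transcripts, Tfr2 was at 1.38, 0.341, 0.991, 0.962, 0.514 and 1.51 CPM in Knockout 1 to 6. The wild-type libraries were at 0.385, 0.167, 0.188, 0.121 and 0.0351 CPM. The groups overlapped on this scale through Knockout 2 and Wild-Type 1. Without that scaling the CPM did not overlap, at 0.387 for Knockout 2 and 0.333 for Wild-Type 1. On the authors' normalized scale they overlapped again, at 10.6 for Knockout 2 and 12 for Wild-Type 1.

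The mean of Tfr2 was 0.949 CPM ± 0.460 (SD) over the 6 knockout libraries, against 0.179 CPM ± 0.129 (SD) over the 5 wild-type libraries, a fitted difference of 2.40 ± 0.50 (SE) on the log2 scale, or 5.26-fold. Pooled over libraries, the 201 knockout reads came to 1.00 CPM (95% Poisson interval 0.870 to 1.15) and the 26 wild-type reads to 0.178 (0.117 to 0.261). These intervals cover counting error only. All Tfr2 reads were assigned to Tfr2-207, a transcript of 2397 coding bases that shares no stretch of 31 bases with a transcript of any other annotated gene.

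**Figure D1:**
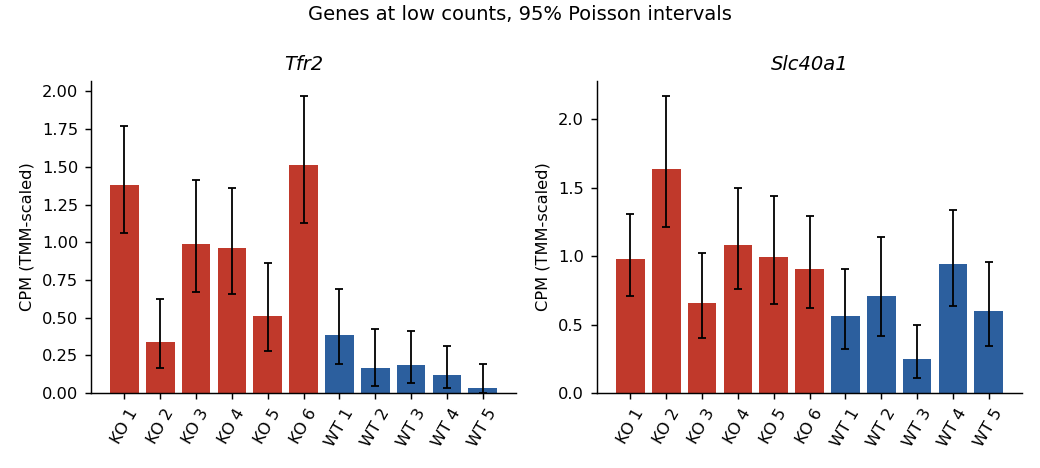
CPM after TMM scaling (y axis) of Tfr2 and Slc40a1 in each of the 11 libraries (x axis, KO for knockout in red, WT for wild type in blue), with 95% Poisson counting intervals as bars. Tfr2 in 5 of 6 knockout libraries lies above the highest wild-type library, at 0.385 CPM, and Knockout 2 lies below it.

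The genes beside Tfr2 on chromosome 5 gave smaller differences. Gnb2, a G protein subunit gene, had a mean of 108 CPM in knockout against 111 CPM in wild type, a log2 difference of -0.04 ± 0.07 (SE). Mospd3, 9164 bases downstream, had a log2 difference of -0.23 ± 0.10, and Pcolce, a procollagen processing enhancer, at 6.48 and 5.92 CPM (0.13 ± 0.28). None of these 3 passed edgeR's adjusted threshold. Actl6b, 258 bases upstream, and the erythropoietin gene Epo had no reads, and Fbxo24 was at 0.0995 and 0.0976 CPM, too low to test.

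Markers of the cell types best known for Tfr2 overlapped between genotypes. The 6 hepatocyte markers summed to 0.0367 to 1.09 CPM in knockout libraries, against 0.220 to 0.841 CPM in the wild type, and 0 of 6 passed the filter. Knockout 5 had the lowest hepatocyte sum. The 9 red blood cell markers found in the tables, of 10 listed, summed to 159 to 404 CPM with a median of 280 in knockout libraries, against 260 to 351 CPM with a median of 295 in the wild type, with Rhag at 0 in every library.

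Most adipocyte markers had higher means in knockout. Their sum was 1450 to 1940 CPM in knockout libraries, against 1050 to 1480 CPM in the wild type, 8 of 10 were higher in knockout, none was at 0 in all libraries, and their median log2 fold change was 0.28. Luminal epithelial and myoepithelial markers also had medians of 0.28 and 0.29, with 5 of 6 and 6 of 6 higher. All 7 milk protein genes were lower, with a median of -0.27. Wider shifts were in B and T cell markers, with a median of -2.44 and 0 of 6 higher, and markers of dividing cells (-0.84, 0 of 6 higher). The skeletal muscle median of 2.32 comes with the 2230 CPM of Knockout 1, while the median sums of the groups were 21.8 CPM in knockout against 20.5 CPM in wild type.

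By edgeR, 0 of these markers passed the adjusted threshold, beside 0.0551% of all genes. By DESeq2, 2 of 10 adipocyte markers passed, beside 1.08% of all genes: Cfd, the secreted protease adipsin, with a log2 difference of 0.78 and an adjusted p of 0.00492, and Fabp4, a fatty acid carrier (log2 difference 0.36, adjusted p = 0.0401). The part of cell makeup in the Tfr2 difference was not tested. Without Knockout 1, the library rich in muscle transcripts, the log2 difference of Tfr2 was 2.26.

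Genes whose levels followed Tfr2 most closely over the 11 libraries were Glb1l2 (Pearson r = 0.91), Smc1a (0.90), Ift57 (0.90), Kcns3 (0.89) and Psmc6 (0.87). These r values partly restate the genotype difference: Glb1l2 averaged 2.66 CPM in knockout, against 1.01 CPM in wild type, and Kcns3, a potassium channel subunit gene, at 0.489 and 0.143 CPM. With each genotype's mean subtracted, the closest were Surf1 (0.89), Nr6a1 (0.87), Dusp3 (0.85), Ttll7 (0.84) and Tmem260 (0.83). No gene was in both sets. All r values here are the highest among 12709 genes over 11 points that share libraries and depth, and are a description only.

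Tfrc (ENSMUSG00000022797, chr16:32608920-32632794, + strand), the receptor that most cells use to take up transferrin, was far more abundant. Knockout 1 to 6 held 24.0, 16.7, 33.6, 29.1, 38.4 and 24.0 CPM of it, against 24.5, 19.5, 29.6, 21.5 and 24.0 CPM in Wild-Type 1 to 5. The wild-type values all lay within the knockout range. The knockout mean was 27.6 CPM ± 7.75 (SD, n = 6) against 23.8 CPM ± 3.79 (SD, n = 5), with a log2 difference of 0.21 ± 0.19 (SE). Per length, Tfrc exceeded Tfr2 in TPM (abundance per length) by a median of 43.3 times in knockout (21.4 to 99.1) and 209 times in wild-type libraries (86.8 to 937).

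Past the receptor, the genes that move iron out of the endosome gave small differences. Steap3 (ENSMUSG00000026389, chr1:120190757-120272705, - strand) was at 10.3 to 14.3 CPM in knockout (median 12.5). Wild-type libraries held 15.0, 17.2, 11.8, 11.2 and 12.6 CPM. It was the 1 gene of the 9 with a lower mean in knockout, with a log2 difference of -0.14 ± 0.13 (SE) and overlapping groups. Slc11a2 (ENSMUSG00000023030, chr15:100387898-100425072, - strand) averaged 38.3 CPM ± 3.81 (SD, n = 6) in knockout against 35.2 CPM ± 4.49 (SD, n = 5), a log2 difference of 0.12 ± 0.10 (SE). Gm5475, a gene on the opposite strand, overlaps the Slc11a2 locus, and the strand setting of the counting is not given in the sources used here.

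The ferritin heavy chain Fth1 (ENSMUSG00000024661, chr19:9980598-9985098, + strand), which oxidises iron for storage, and the light chain Ftl1 (ENSMUSG00000050708, chr7:45457944-45459884, - strand), which helps form the iron core, were the most abundant. Fth1 ranged from 679 to 970 CPM in knockout libraries, with a median of 864, and held 913, 744, 707, 948 and 610 CPM in Wild-Type 1 to 5. Ftl1 ranged from 285 to 387 CPM in knockout libraries, with a median of 370, and held 425, 350, 308, 347 and 311 CPM in the wild-type ones. The genotypes overlapped broadly for both, and the log2 differences were 0.10 ± 0.13 (SE) for Fth1 and 0.02 ± 0.10 (SE) for Ftl1.

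The ferritin counts carry an uncertainty from shared sequence. Of the 31-base stretches in the Ftl1 coding sequences, 82.44% recur in Ftl1-ps1, a gene annotated as protein-coding that the tables list separately, and 89.07% recur in 29 annotated genes that are not in the tables, among them Gm15590 (70.43%) and Ftl2-ps (63.44%). Over 552 coding bases Ftl1 and Ftl1-ps1 differ at 2 positions, G468A and G504A, counted from 1 at the coding start with the base of Ftl1 first. The stretch around the first of these, positions 454 to 482 of the coding sequence, shows how little separates them, with the differing base in capitals.
Ftl1: ctccgcagggtggcGgggccacaaccagc
Ftl1-ps1: ctccgcagggtggcAgggccacaaccagc

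The longest identical run was 467 bases, so most reads cannot be assigned by their letters. The tables gave Ftl1-ps1 at most 0.285 CPM in any library, and the Ftl1 difference was 0.02 on the log2 scale with both genes summed. Fth1 shares no such stretch with Ftl1 or any other listed gene, and 20.28% of its stretches recur in 3 annotated genes that are not in the tables, of which Gm6977 holds 17.83%. Reads from such copies, if transcribed, could be counted for the ferritins in both genotypes. Gm10252 lies opposite Ftl1 and a miRNA gene, Gm22133, lies within it.

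Slc40a1 (ENSMUSG00000025993, chr1:45908068-45926523, - strand), the one known exporter of iron from cells, was a second low-count gene. Knockout 1 to 6 were at 0.977, 1.64, 0.661, 1.08, 0.991 and 0.910 CPM, and Wild-Type 1 to 5 at 0.560, 0.710, 0.251, 0.942 and 0.597 CPM. Wild-Type 2 and 4 reached into the knockout range. The fitted log2 difference was 0.76 ± 0.31 (SE), from 207 reads over all knockout and 89 over all wild-type libraries. It fell to 0.51 with transcript length offsets and to 0.33 as a ratio of means of the authors' normalized values. Macrophages, which are rich in ferroportin in other tissues, had summed markers of 82.0 to 143 CPM in knockout libraries, against 101 to 158 CPM in the wild type, with 3 of 9 tested markers higher in knockout.

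The iron regulatory proteins differed little between genotypes. Aco1 (ENSMUSG00000028405, chr4:40143081-40198338, + strand), a cytosolic aconitase when it holds an iron-sulfur cluster, averaged 78.8 CPM ± 2.24 (SD, n = 6) in knockout, against 76.0 CPM ± 5.87 (SD, n = 5). Ireb2 (ENSMUSG00000032293, chr9:54863789-54912530, + strand), which is broken down when iron is plentiful, averaged 27.1 CPM ± 3.36 (SD, n = 6) against 23.1 CPM ± 3.90 (SD, n = 5). The log2 differences were 0.05 ± 0.06 (SE) for Aco1 and 0.23 ± 0.12 (SE) for Ireb2, with overlapping groups.

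**Figure D2:**
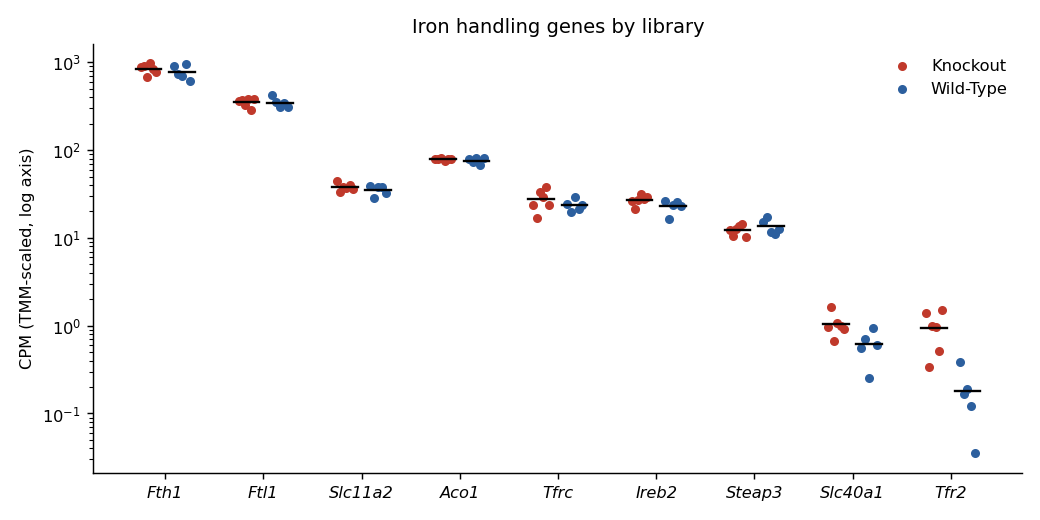
CPM after TMM scaling (y axis, log scale) of the 9 iron handling genes (x axis, ordered by mean TPM) in the 6 knockout (red) and 5 wild-type (blue) libraries, with group means as black lines. The groups overlap for every gene, and the 2 means lie farthest apart for Tfr2, at 0.949 and 0.179 CPM.

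Of the 9 genes, 8 had a higher mean and 1 a lower mean in knockout, with a median log2 fold change of 0.12, where over all 12709 tested genes the median was -0.007 and 48.4% were above 0. By edgeR's quasi-likelihood test with Benjamini-Hochberg adjustment, 0 of 9 passed 0.05 beside 0.0551% of all genes, and 2 of 9, Tfr2 and Slc40a1, had an unadjusted p under 0.05 beside 12.4%. By DESeq2, 1 of 9 passed, Tfr2, beside 1.08% of all genes and 0.643% that passed as higher in knockout. The CPM of the groups did not overlap for 0 of 9, beside 1.32% of all genes and 0.787% that lay apart and higher in knockout. Because the genes were chosen on this contrast, nothing is read from these counts. The edgeR adjusted p of Tfr2 was 0.137 with all libraries, 0.0472 without Knockout 2, when it was among 28 genes called, and 0.111 to 0.33 with any other library left out.

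**Figure D3:**
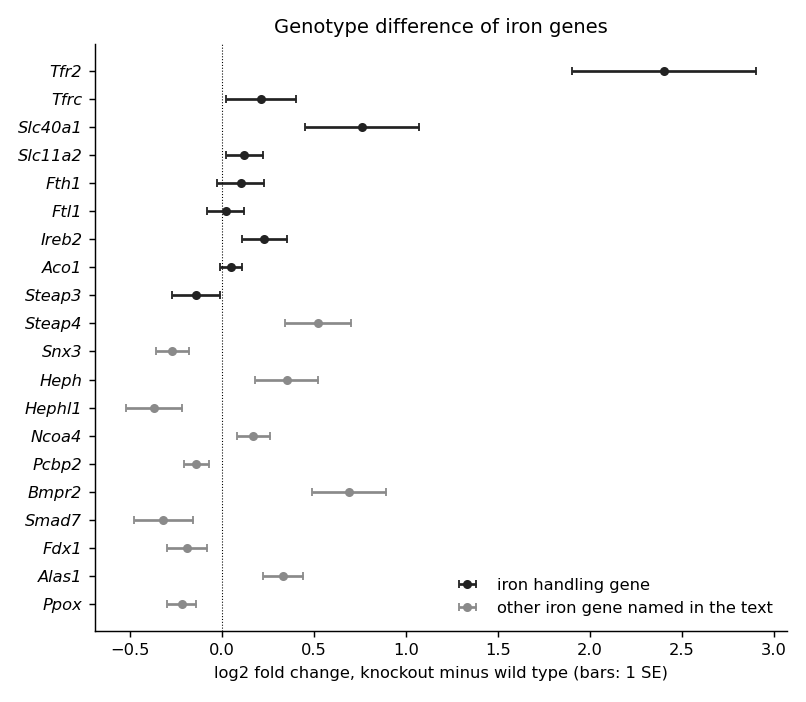
Log2 fold change, knockout minus wild type (x axis), with 1 SE as bars, for the 9 iron handling genes (black) and 11 further iron genes named in the text (grey). Tfr2 lies at 2.40 and Slc40a1 at 0.76, and the other 7 iron handling genes lie between -0.14 and 0.23.

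Levels of different genes were compared per length. The choice of genes did not use the order of their levels. It did use the reads of Tfr2, so the place of Tfr2 is a description. In mean TPM over the 11 libraries (SD in brackets) the order was Fth1 at 1200 (304), Ftl1 at 932 (192), Slc11a2 at 18.2 (5.49), Aco1 at 11.5 (1.87), Tfrc at 5.48 (1.34), Ireb2 at 4.00 (0.922), Steap3 at 3.41 (0.522), Slc40a1 at 0.450 (0.330) and Tfr2 at 0.101 (0.0987). The ferritin transcripts thus stood above those of the other iron handling genes in this order. The transporter Slc11a2 stood above the receptor and the reductase that precede it in the pathway.

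Neighbours in that order were compared within each library with exact two-sided sign-flip permutation tests of log2(TPM + 0.1), adjusted over the 8 pairs. The pairs from Fth1 to Ireb2, and Steap3 with Slc40a1, kept their order in 11 of 11 libraries with an adjusted p of 0.0013, where the raw p of 0.000977 is the smallest the test allows. For Slc11a2 above Aco1 this holds in TPM only, as the reverse order passed equally on the other length scale given next. Slc40a1 exceeded Tfr2 in 10 of 11 libraries, by 1.32 ± 1.06 (SD) on this log2 scale. The exception was Knockout 6, at 0.244 TPM for Slc40a1 and 0.254 TPM for Tfr2. No p-value is read for this pair, because Tfr2 was chosen on its reads by genotype. Ireb2 and Steap3 were not distinguished, with a mean log2 difference of 0.20 ± 0.38 (SD) and an exact adjusted p of 0.113.

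**Figure D4:**
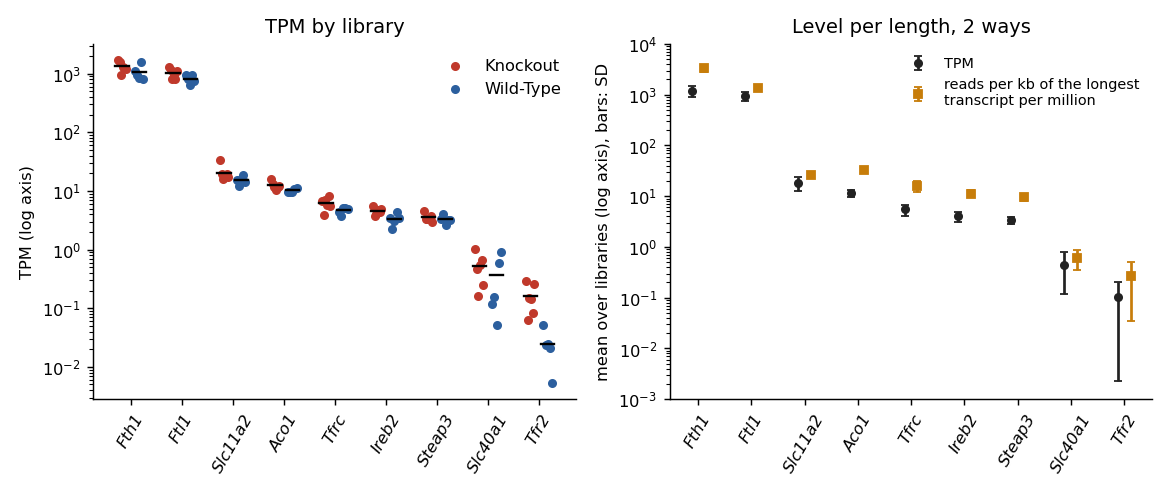
Left, TPM (log y axis) of each gene by library, knockout in red and wild type in blue with group means as black lines. Right, the mean over 11 libraries with the SD as bars (log y axis), as TPM (black circles) and as CPM per kilobase of effective length of the longest transcript (orange squares); Aco1 and Slc11a2 trade places between the scales.

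The length used mattered for 2 neighbours. In CPM per kilobase of effective length of the longest listed transcript, Aco1 (32.7) stood above Slc11a2 (26.5) in 11 of 11 libraries (exact adjusted p = 0.0013), so the order of these 2 is not settled. The order was otherwise the same. On that scale Ireb2 and Steap3 were again not distinguished (exact adjusted p = 0.0684). Fth1 exceeded Ftl1 by a median of 1.32 times in knockout and 1.20 times in wild-type libraries in TPM, and by 2.57 and 2.29 times per longest transcript. TPM values carry no TMM scaling, so the TPM level of a gene is not read as a difference between genotypes here. Ratios of 2 genes within a library are given by genotype as a description.

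Short transcripts took a larger part of the TPM of some genes than of their reads. Ftl1-202, of 255 coding bases, held 20.5% ± 1.16 (SD, n = 6) of the Ftl1 reads in knockout, against 19.5% ± 0.489 (SD, n = 5), yet it made up 58.7% of the gene's TPM on average. It shares 97.3% of its 31-base stretches with the full-length Ftl1-201. Slc40a1-206, of 210 bases and wholly contained in Slc40a1-201, took 0 to 10.6% of the reads but up to 85.8% of the TPM, so the TPM of ferroportin rests on how a handful of reads were assigned. For Slc11a2, the full-length forms Slc11a2-201 and Slc11a2-205 held on average 72.1% and 20.9% of the reads but 37.7% and 10.9% of the TPM, the rest lying on shorter forms.

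Slc11a2 has transcript forms with different protein ends, of which one carries the IRE printed above. Slc11a2-205, with the IRE, held 20.8% ± 7.68 (SD, n = 6) of the gene's reads in knockout, against 21.0% ± 5.14 (SD, n = 5). Slc11a2-201, without it, held 72.2% ± 8.13 (SD) against 71.9% ± 6.00 (SD). The shares did not differ beyond their spread. The last 30 coding bases of each are given because they belong to the part that tells the forms apart, with the stop codon in capitals.
Slc11a2-205: gaagataccagcggtggcaacattaagTAA
Slc11a2-201: gtggatgctgactcagtggtgtccagaTGA

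The forms share 96.6% of the 31-base stretches of Slc11a2-205, so these shares rest on reads over the parts that differ. For Steap3, Steap3-203 and the longer Steap3-204 share all stretches of the former. Steap3-203 held 57.6, 29.5, 50.4, 0, 0 and 59.5% of the reads in Knockout 1 to 6 and 34.5, 30.2, 44.3, 27.9 and 42.4% in Wild-Type 1 to 5. Knockout 4 and 5 were listed at 0 while their Steap3 totals of 13.7 and 14.3 CPM were the highest of the knockout group. Whether that reflects the assignment of shared reads was not tested.

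**Figure D5:**
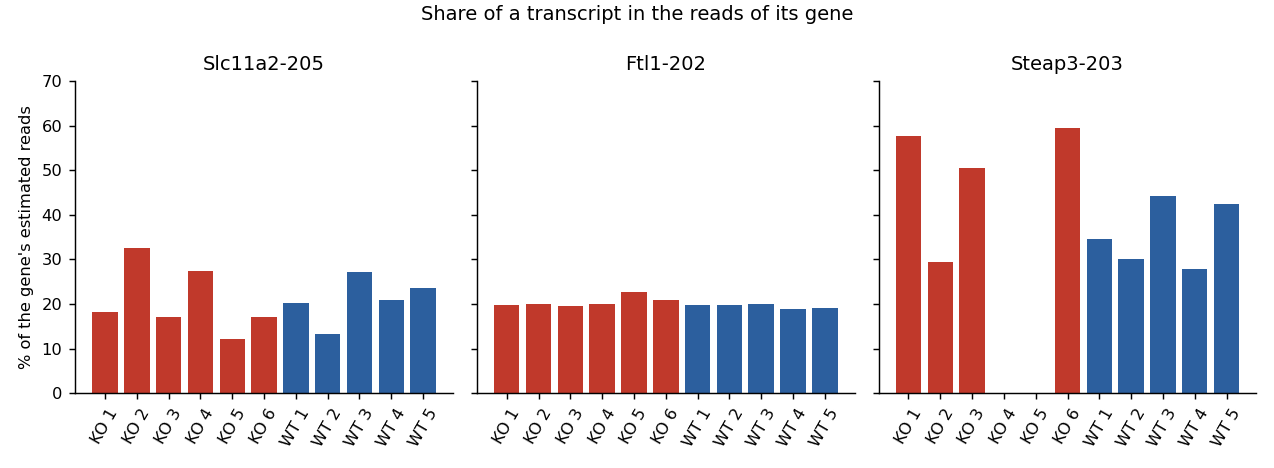
Share of a gene's estimated reads (y axis, percent) assigned to Slc11a2-205, Ftl1-202 and Steap3-203 in each library (x axis, KO knockout in red, WT wild type in blue). Ftl1-202 stays between 18.9 and 22.6%, whereas Steap3-203 runs from 0 in Knockout 4 and 5 to 59.5% in Knockout 6.

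Whether the 9 genes varied together was examined among libraries of the same genotype. Log2 CPM was centred on each genotype's mean, and 36 pairs were tested by permutation within genotype. With Benjamini-Hochberg adjustment over the pairs, 0 of 36 passed 0.05, and 2 had an unadjusted p under 0.05. Tfrc and Slc40a1 gave r = -0.69 (permutation p = 0.0102, adjusted p = 0.368, rho = -0.52 with p = 0.102), and r = -0.76 without the 2 libraries farthest from the Tfrc median. In log2 CPM r stayed between -0.81 and -0.56 with any single library left out. In log2 TPM the sign turned, to r = 0.20 (permutation, adjusted p = 0.712), so the direction depends on the scale. The TPM of Slc40a1 rests on how a few reads were assigned, and the part of this in the change of sign was not tested. Slc11a2 and Ireb2 gave r = 0.70 (permutation p = 0.0313, adjusted p = 0.489, rho = 0.41).

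The wider pathway was described with 83 other iron genes in 6 lists, of which 75 passed the filter. In the knockout, 34 had a higher and 41 a lower mean, with a median log2 fold change of -0.03. By edgeR 0 of 75 passed the adjusted threshold in either direction, beside 0.0472% higher and 0.00787% lower among all genes, and by DESeq2 also 0. At an unadjusted p under 0.05, 6 were higher and 3 lower, beside 6.32% and 6.07% of all genes. The smallest adjusted p was 0.267. The groups did not overlap in CPM for 1 of 75, Bmpr1a, beside 1.32% of all genes. From each list the gene with the smallest p in each direction is named, with 1 exception.

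Among 17 uptake genes, 7 were higher and 10 lower. Steap4, a plasma membrane metalloreductase, averaged 7.30 CPM ± 2.07 (SD, n = 6) in knockout against 5.11 CPM ± 0.766 (SD, n = 5), a log2 difference of 0.52 ± 0.18 (SE; edgeR adjusted p = 0.315). Snx3, a sorting nexin that returns Tfrc to the surface, was at 24.1 and 29.0 CPM, a difference of -0.27 ± 0.09 (edgeR adjusted p = 0.307). Transferrin itself (Trf), chosen after its values were seen, was made by the gland at 81300 CPM in knockout against 98100 CPM in wild type, with a log2 difference of -0.27 ± 0.13 (SE; edgeR adjusted p = 0.408). Of 3 export and oxidation genes, the ferroxidase Heph (hephaestin) was at 2.03 and 1.59 CPM (0.35 ± 0.17, edgeR adjusted p = 0.415) and its relative Hephl1 at 33.7 and 43.5 CPM (-0.37 ± 0.15, edgeR adjusted p = 0.357).

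Of 3 storage and chaperone genes, Ncoa4, the receptor that delivers ferritin to autophagy, was at 24.5 and 21.8 CPM (0.17 ± 0.09, edgeR adjusted p = 0.453), and the iron chaperone Pcbp2 at 79.4 and 87.5 CPM (-0.14 ± 0.07, edgeR adjusted p = 0.432). Mitochondrial ferritin, Ftmt, had no reads. In the list on iron sensing and hepcidin, to which Tfr2 belongs by function, 13 of 15 tested genes were higher, with a median of 0.14, and none passed with all libraries. Bmpr2, a BMP receptor, averaged 2.11 CPM ± 0.524 (SD, n = 6) in knockout against 1.31 CPM ± 0.114 (SD, n = 5), a log2 difference of 0.69 ± 0.20 (SE) with an edgeR adjusted p of 0.267, which was 0.0472 without Knockout 2. Bmpr1a, another BMP receptor, named because its groups did not overlap and thus after its values were seen, was at 20.5 to 22.8 CPM in the knockout libraries and 15.0 to 20.1 CPM in the others (log2 difference 0.26 ± 0.08, edgeR adjusted p = 0.27, DESeq2 0.0879). Smad7, an inhibitor of BMP signalling, was at 1.67 and 2.08 CPM (-0.32 ± 0.16, edgeR adjusted p = 0.444). Hepcidin itself was close to undetected, with 2 reads of Hamp in 1 wild-type library and none in the others, and no reads of Hamp2.

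Of 17 mitochondrial iron and iron-sulfur cluster genes, 3 were higher and 14 lower, with a median of -0.05. The ferredoxin Fdx1 was at 9.54 and 10.9 CPM (-0.19 ± 0.11, edgeR adjusted p = 0.522; -0.29 without Knockout 4). Of 20 heme genes, 8 were higher and 12 lower. Alas1, the first enzyme of heme synthesis, averaged 22.5 CPM ± 3.24 (SD, n = 6) in knockout against 17.8 CPM ± 2.11 (SD, n = 5), a difference of 0.33 ± 0.11 (SE; edgeR adjusted p = 0.286). It was 0.19 with transcript length offsets (edgeR adjusted p = 0.556) and 0.25 without Knockout 5. Ppox, a later enzyme of the same path, was at 14.5 and 16.9 CPM (-0.22 ± 0.08, edgeR adjusted p = 0.314).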

How the data were processed

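The authors deposited, per the file headers, a table per library with each transcript's length, effective length, TPM and estimated count. They also deposited a signal table of gene values normalized with DESeq2, per its name. The submitters' processing notes name Salmon 1.3.0, DESeq2 1.28.1 and GRCm38.p6. The labels' protocol gives a strand-specific library kit.

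Of 58204 transcripts, 57378 matched GENCODE M21, and the 826 others, with 0.200 to 0.272% of reads, were left out. Summing those estimated counts per gene, with rounding, gave the counts used. edgeR 4.0.16 (filterByExpr, TMM, robust quasi-likelihood test, genotype as the only term) gave fold changes and p-values over 12709 genes, Benjamini-Hochberg adjusted at 0.05, and was tested on simulated data. DESeq2 1.42.0 was an alternative. Standard errors follow from the F statistic. Poisson intervals are at 95%, and reads without molecular identifiers are not independent molecules.

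The 9 genes and all lists were chosen with earlier results of these data known. Named genes are the 9, the smallest p in each direction from each list (1 gene is not reported here), and the 5 most correlated with Tfr2 in either way. Locations and sequences are from GENCODE M21 on GRCm38. No protein sequence is given. The labels do not say whether replicate numbers pair the libraries, and the main fit used no pairing.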

Additional observations from a re-analysis of the deposited data

Results flagged for a closer look

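Single libraries stood apart from the rest of their genotype, by Dixon's test at its 95% critical value, in 3 of 42 sets of values (21 genes in 2 groups), where chance gives about 2.1. Alas1 in Knockout 5 was at 29.0 CPM, against 20.3 to 21.9 CPM in the other knockout libraries. Fdx1 in Knockout 4 was at 12.8 CPM, against 8.60 to 9.18 CPM. Snx3 in Knockout 6 was at 20.5 CPM, against 24.1 to 25.8 CPM. None of these 3 was among the 9 iron handling genes.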

How the results depend on the processing

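edgeR called 7 genes in all. DESeq2 called 145, and leaving out 1 library at a time gave 0 to 28: 28 without Knockout 2, 13 or 14 without Wild-Type 1, 4 or 5, 2 without Knockout 1 or Wild-Type 3, and 0 without Knockout 3 or 6. With the replicate block, 0 genes were called. Same-numbered libraries correlated at -0.222 to 0.187, and 0 of 5 wild-type libraries correlated best with their own number. These values show no pairing by number but cannot settle whether litters were shared, on which the labels are silent. Under the block Tfr2 differed by 2.26 (edgeR adjusted p = 0.317). Of the 83 listed iron genes, 0 were called with all libraries and 0 to 1 with a library left out, the 1 being Bmpr2 without Knockout 2 (log2 difference 0.82). Across all alternatives the log2 difference of Tfr2 ranged from 2.14 (without Wild-Type 5) to 2.87 (without Wild-Type 1), and that of Slc40a1 from 0.33 to 0.99. Those of the other 7 genes kept within their spread. Ftl1 ranged from -0.02 to 0.10, so its sign is not settled. The authors' normalized values and the sum of Ftl1 and Ftl1-ps1 were added after seeing the data. Depth limits Tfr2, with 1 to 11 reads in a wild-type library. The correlation of Tfrc with Slc40a1, -0.69 in log2 CPM, was 0.20 in log2 TPM.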

Other observations

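Hjv (hemojuvelin), a BMP co-receptor in the hepcidin pathway that skeletal muscle also expresses, did not pass the filter and was chosen after its values were seen. Its highest value was 5.04 CPM, in the knockout group, against a knockout median of 0.182 CPM and at most 0.595 CPM in wild type. The skeletal muscle markers summed to 2230 CPM in Knockout 1, 170 CPM in Knockout 2 and at most 32.6 CPM in the other knockout libraries, and to 0.817 to 185 CPM in wild type. Lactoferrin (Ltf), an iron-binding milk protein, also chosen after its values were seen, averaged 2370 CPM ± 990 (SD, n = 6) in knockout against 1430 CPM ± 424 (SD, n = 5), a log2 difference of 0.73 ± 0.30 (SE) with an edgeR adjusted p of 0.361. Transferrin went the other way, as given above, and neither passed.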
